A study of Mus musculus with 2 samples.

Results

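The genes described here are the secreted Wnt ligands, the Wnt co-receptors Lrp5 and Lrp6, the ligand-modifying enzyme Porcn and the secreted Wnt antagonists, as far as 2 mouse promoter arrays carried them. They were taken by the gene name printed on each array spot, a rule that holds no measured values. Earlier results of these data were known when the genes were chosen. The names gave 34 genes of the 17096 on the arrays: 19 Wnt ligands, 3 genes of the co-receptor and Porcn group, and 12 secreted antagonists. The antagonists were 5 of the Sfrp family (Sfrp1, Sfrp2, Sfrp4, Sfrp5 and Frzb), 5 of the Dkk family (Dkk1, Dkk2, Dkk3, Dkk4 and Dkkl1), Wif1 and Cer1.

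Wnt ligands are lipid-modified secreted proteins, and Porcn is the acyltransferase of the endoplasmic reticulum that attaches the lipid. At the receiving cell a ligand joins a Frizzled receptor to Lrp5 or Lrp6, which stabilises β-catenin. β-catenin enters the nucleus and binds the Tcf/Lef family of DNA-binding proteins, and Tcf3 (gene Tcf7l1) is the family member best known as a repressor in mouse embryonic stem cells. Sfrp proteins and Wif1 act outside the cell by binding ligands, whereas Dkk1, Dkk2 and Dkk4 bind the Lrp co-receptors. Cer1 is the mouse relative of the frog protein Cerberus, a secreted antagonist of Nodal, BMP and Wnt ligands.

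The study asked which promoters Tcf3 occupies in E14 cells, an established mouse embryonic stem cell line that was grown here without feeder cells. The single group was E14 chromatin, with no genetic change or treatment named, cross-linked with formaldehyde and immunoprecipitated. The title names Tcf3, and the protocol lists a Tcf3 antibody among several without tying it to an array. Immunoprecipitated DNA was labelled with Cy5 and input DNA with Cy3, after linker ligation and PCR. The 2 arrays carried different probes, 237195 and 237185 of them, so each gene was measured once, with no replicate and no control immunoprecipitation. No difference between conditions could be tested, and every call below describes an array. The number of arrays limits the precision, and the labels do not say whether both arrays came from the same immunoprecipitation.

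All values are log2 ratios of Cy5 over Cy3, centred on each array's median, so 1 means a doubling over the typical probe. The error after a probe's value (±) is the scanner software's own error of that log ratio. A set joins each probe to the closest probe upstream and the closest downstream, where these lie within 1000 bp. The ± after a set mean is the SD over its probes, a measure of unevenness along the DNA that says nothing of repeat experiments. Upper-tail normal probabilities were taken against the array's scatter below the median. A call needed a set mean under 0.001 and a further condition: the central probe under 0.001 beside a neighbour under 0.1, or any 2 of the set's probes under 0.005. On array 1, 30.7% of spots, and on array 2, 51.7%, had a Cy5 signal so close to background that the software put a surrogate value in its place; over the genes described here, spots with a surrogate in either channel made up 22.4% and 40.3%. Above 40% GC, ratios also increased with the probe's GC content: the median of measured probes was -0.12 at 40 to 50% GC and 1.48 at 70 to 80% GC on array 1, and -0.19 and 1.23 on array 2. At 30 to 40% GC the median was -0.28 on array 1 and -0.01 on array 2, so on array 2 it was not lowest there. Results are therefore given in 3 settings: all spots, measured spots (no surrogate in either channel), and measured spots after the median at each GC content was subtracted, called GC-corrected. Centring and scatter were computed anew in each setting. The scatter was 0.72, 0.71 and 0.58 on array 1 and 0.78, 0.68 and 0.63 on array 2, in that order. A smaller scatter lets a lower set mean be called. Surrogates were rarer in Cy3, at 2.22% of spots on array 1 and 7.89% on array 2. Measured spots are thus chosen largely by their Cy5 signal, the immunoprecipitate itself, which is not a neutral filter. Their sets can join high probes across low spots that were left out.

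The sequences below are examples of the probes described, as printed on the arrays, 5′ to 3′. Not every called probe is shown, for instance not the Wnt4 probe at 105 bp, and the Wnt11 probe at -1243 bp was not called. The share of called probes with a Tcf motif is given further below. Capitals mark a 7-base match, on either strand, to the Tcf motif CTTTGAT or to its variants ending in AA (CTTTGAA) and in TT (the sequence CTTTGTT), and a probe wholly in lower case holds none of them. Positions are from the probe's centre to the gene's RefSeq start. Starts were placed by finding probe sequences within RefSeq promoters of GRCm38.p6, and the coordinates given with that build are the probe's own on the + strand. The first 3 lie in GC-rich DNA just upstream of a start, and the next 2 lie farther upstream in AT-richer DNA. For Porcn 30 bases around the match are shown, from a probe in its called region.
Wnt11, -48 bp, chr7:98835042-98835086: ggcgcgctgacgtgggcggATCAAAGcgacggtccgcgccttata
Wnt4, -130 bp, chr4:137277483-137277527: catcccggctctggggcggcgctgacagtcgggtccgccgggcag
Wnt2b, -43 bp, chr3:104961730-104961774: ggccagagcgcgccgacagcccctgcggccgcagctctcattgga
Wnt11, -1243 bp: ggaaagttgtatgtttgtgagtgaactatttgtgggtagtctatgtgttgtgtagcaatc
Wnt7a, -3761 bp: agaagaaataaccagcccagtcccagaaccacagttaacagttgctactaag
Porcn: ctgtacTTCAAAGtctgtacatcttaacta

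Over all spots, 5 of the 34 genes held a called probe: the ligands Wnt4, Wnt11, Wnt2b and Wnt6 and the antagonist Sfrp1. The same rule called 15.4% of all 16953 genes tested, so the number is close to the background (14.7% of the 34). Other processing moved these numbers: normexp background correction called 26 of 34 and 54.3% of all genes, and a scale taken from the scatter of set means called 3 of 34 and 10.3%. With the deposited log10 ratio the count was again 5 of 34, beside 8.94% of all genes. With measured spots the count was 7 of 34, beside 15.5% of all genes; Porcn and Wnt1 were added. In the GC-corrected values it was 10 of 34, beside 14.8% of all genes. Those 10 were Wnt1, Wnt4, Wnt6, Wnt7a, Wnt8a, Porcn, Sfrp1, Sfrp2, Dkk3 and Cer1. Only Wnt4, Wnt6 and Sfrp1 were called in all 3 settings, 12 genes were called in at least 1, and 22 in none. The median highest set mean of the 34 genes was 1.17 over all spots, 1.23 over measured spots and 0.99 GC-corrected, against 1.15, 0.99 and 0.86 over all genes with at least 3 probes. The genes described here carried more probes than others (median 37 against 28), which gives more chances of a high set. Ligands gave 4, 5 and 5 calls of 19 in the 3 settings, Lrp5, Lrp6 and Porcn 0, 1 and 1 of 3, and antagonists 1, 1 and 4 of 12. The arrays differed too: over all spots 5 of the 18 genes on array 1 and 0 of the 16 on array 2 were called, while 25.2% and 5.51% of all genes on those arrays were. Over measured spots the counts were 5 of 18 and 2 of 16, beside 18.4% and 12.4% of all genes, and GC-corrected 7 of 18 and 3 of 16, beside 21.2% and 8.07%. Which array carries a gene thus moves with its chance of a call, and the part of the array in each result was not tested.

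**Figure D1:**
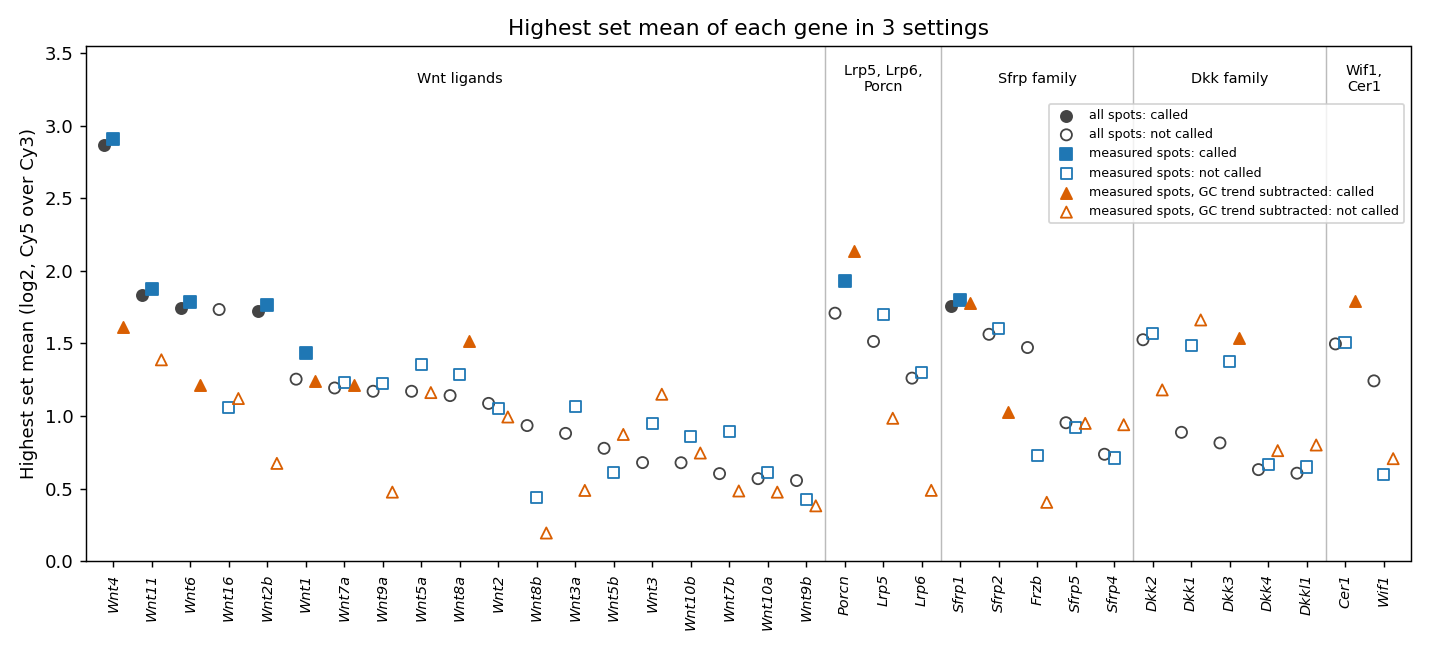
The highest set mean of each of the 34 genes (log2 of Cy5 over Cy3, vertical axis), grouped by role, is drawn in 3 settings, filled where the gene held a called probe in any of its sets. Wnt4 stands highest at 2.87 over all spots and comes down to 1.62 in the GC-corrected values, while Porcn goes from 1.71 to 2.13.

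Among the ligands, Wnt4, which is known for its part in kidney and female reproductive tract development, held the highest set of all 34 genes. Its highest set spanned the start on chromosome 4 and had a mean of 2.87 ± 1.04 (SD, 3 probes), a 7.31-fold ratio over the array median. Probe values along the promoter were 2.29 ± 0.74 at -587 bp, 2.17 ± 0.29 at -434 bp, 1.06 ± 0.23 at -285 bp, 2.90 ± 0.33 at -130 bp, 3.89 ± 0.40 at 105 bp and 1.82 ± 0.27 at 211 bp. All 6 were above the array's typical probe, and the next probe upstream, at -788 bp, was at 0.16. The first 5 of the 6 were called, and the 6th joined them with measured spots. This was the only gene of the 34 with more than 3 called probes in any of the 3 settings. The called stretch had a mean GC content of 73.3%, and in the GC-corrected values the probes at -130, 105 and 211 bp came to 1.28, 3.07 and 0.50, and the set mean to 1.62 ± 1.32. Only the probe at 105 bp, inside the transcribed part, stayed called there. The -130 bp sequence printed above, 77.8% G and C, holds none of the 3 motifs.

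Wnt11, a ligand known mainly for β-catenin-independent signalling in morphogenesis, has 2 RefSeq starts on chromosome 7 and a called probe at each. At the first start, the -48 bp probe whose sequence is printed above read 3.18 ± 0.53, between neighbours of 0.93 at -190 bp and 0.46 at 121 bp. It carries CTTTGAT, written ATCAAAG on the strand shown. At the second start, the probe at 204 bp read 4.18 ± 0.43, the highest single probe of all 34 genes, while its neighbours read 1.36 and -0.23. Both are single-probe peaks: the highest set mean was 1.83 ± 2.15 (SD, 3 probes), a spread wider than the mean. In the GC-corrected values the same probes read 2.07 and 2.72, their sets fell short of the threshold, and Wnt11 was not called. Another high probe lay at -1243 bp, in DNA of 38.3% GC, and it went from 2.42 to 2.80 with the correction. Its neighbour at -1421 bp read -0.03 in those values, and it was not called in any of the 3 settings.

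Wnt2b, a ligand of the eye and foregut, had a single called probe, 43 bp upstream of its start on chromosome 3. That probe read 3.42 ± 0.41, beside 1.22 ± 0.43 at -158 bp and 0.52 ± 0.32 at 166 bp, and the set mean was 1.72 ± 1.51 (SD, 3 probes). At 73.3% GC it came to 1.97 in the GC-corrected values, and the gene's highest set mean was then 0.67, with no call. Wnt2b thus stands at the start of the gene in 2 settings and drops out of the calls in the GC-corrected values.

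Wnt6, on chromosome 1, was called in all 3 settings, but in 2 different places. Over all spots the called probe lay at 251 bp and read 2.91 ± 0.33, and the highest set, centred at -95 bp, had a mean of 1.74 ± 1.12 (SD, 3 probes). After GC correction that probe read 1.68 and was not called. The call was then at -3654 bp, where 2 probes at -3853 bp and -3463 bp read 1.83 and 2.04 on either side of a probe at -0.22. The called probe is the low one in the middle, because the rule admits a set in which 2 probes are high. The set mean there was 1.22 ± 1.25, so the call upstream has a spread as large as its mean.

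**Figure D2:**
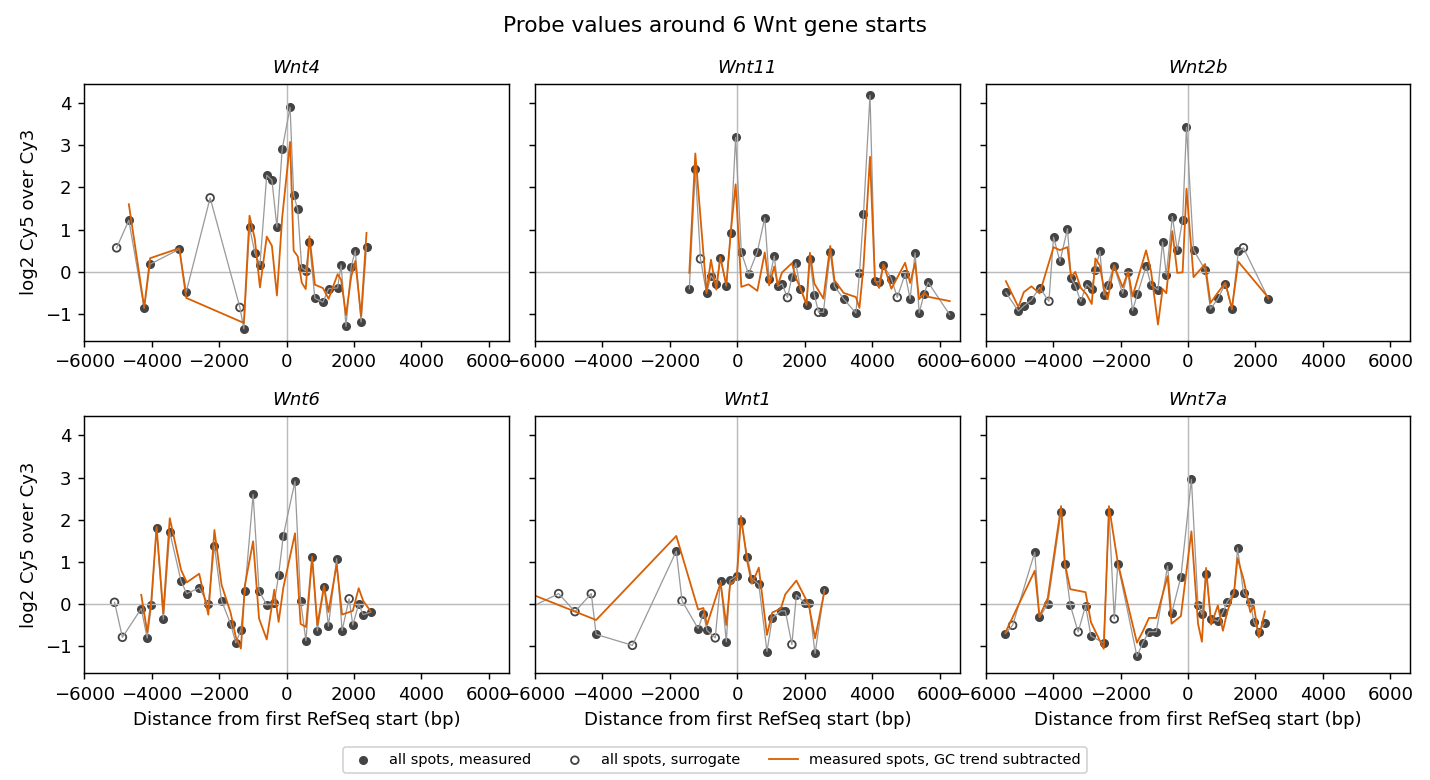
Log2 ratios of Cy5 over Cy3 (vertical axis) are plotted for single probes against distance in bp from the first RefSeq start of 6 Wnt genes, with filled points for measured and open points for surrogate spots. The line of GC-corrected values runs below the points near the starts, as at the Wnt2b probe that goes from 3.42 to 1.97, and close to or above them farther upstream, as at the Wnt11 probe at -1243 bp (Wnt1 probes farther upstream than the axis are not drawn).

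Wnt1, a ligand of midbrain development and carried on array 2, was called with measured spots and GC-corrected, but not over all spots. Its probes read 0.67 ± 0.61 at -13 bp, 1.96 ± 0.41 at 110 bp and 1.13 ± 0.27 at 298 bp over all spots. All 3 were above the array median, and the set mean was 1.25 ± 0.65 over all spots, 1.44 over measured spots and 1.24 GC-corrected, so it changed little with GC content. The same 3 probes, none a surrogate, formed the set in each setting, while centring and scatter were taken anew. Wnt10b lies next to Wnt1 on chromosome 15 with starts 11162 bp apart, and 17 probes between them carry both names. The called Wnt1 probe was not part of a high Wnt10b set: the highest set of Wnt10b was centred 56 bp after its own start, with a mean of 0.68 ± 1.05.

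Wnt7a and Wnt8a were called in the GC-corrected values alone among the 3 settings. For Wnt7a, a ligand of limb and uterine patterning, the called probe was the one at -3761 bp printed above, at 2.18 over all spots and 2.32 ± 0.28 corrected. Its neighbours at -3649 and -4157 bp read 0.96 and 0.14. The highest uncorrected probe of Wnt7a was at the start, 2.96 ± 0.52 at 103 bp, and was not called because its neighbours read -0.02 and 0.64. For Wnt8a, a ligand of the early primitive streak, 2 adjacent probes read 1.97 ± 0.40 and 2.08 ± 0.47 after correction, with a set mean of 1.52 ± 0.88 (SD, 3 probes), compared with 1.14 in the highest set over all spots.

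The remaining 12 ligands were not called in any of the 3 settings. Wnt16 reached 1.73 over all spots, but all 3 probes of that set were surrogates, and its highest measured set, near the start, had a mean of 1.06 ± 0.70. Wnt5a, known for β-catenin-independent signalling, had a single measured probe at 2.91 flanked by low values, and highest set means of 1.17, 1.35 and 1.16 in the 3 settings. Wnt9a was at 1.17, 1.23 and 0.48, and Wnt3a, the ligand most used to activate the pathway in culture, at 0.88, 1.06 and 0.49. Wnt3, the ligand required for gastrulation, had 0.68 over all spots and 1.15 GC-corrected, in a set about 5 kb upstream of its start (centre at -5089 bp). Wnt2 had 1.09 and 0.99, Wnt5b 0.78 and 0.87, Wnt10b 0.68 and 0.75, and Wnt8b 0.93 and 0.19, each over all spots and then GC-corrected. The Wnt5b set over all spots was centred far upstream, at -7934 bp, and Wnt5b shares 6 probes with Fbxl14. The corrected Wnt10b set was centred at -9677 bp, on the side of Wnt1. The lowest ligands over all spots were Wnt7b at 0.60, Wnt10a at 0.57 and Wnt9b at 0.56. Wnt3 and Wnt9b are neighbours on chromosome 11, as are Wnt3a and Wnt9a, with starts 24354 and 16179 bp apart. Wnt6 and Wnt10a also lie near each other on chromosome 1, with no placed start for Wnt10a.

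The highest set mean of Porcn went up from all spots to measured spots and again to GC-corrected values. Those of Wnt3, Wnt8a, Dkk1, Dkk3, Dkk4, Dkkl1 and Cer1 did so too. On the array's own coordinates (the sources used here give no build for them), its called region lay on chromosome X from 6640440 to 6641537. Over all spots the 3 probes of its highest set read 1.80 ± 0.43, 2.10 ± 0.42 and 1.22 ± 2.28, the last a surrogate, and the set mean of 1.71 ± 0.45 was not called. With measured spots, centred anew, the first 2 probes read 1.99 and 2.28. The set left out the surrogate and took in the next measured probe instead, from 6641481 to 6641537. That probe read 1.51 there, against 1.33 over all spots. The mean of this set was 1.93 ± 0.39, and GC-corrected it was 2.13 ± 0.34 (SD, 3 probes). In the corrected values the 3 probes of this measured set read 2.16, 2.46 and 1.78, and all 3 were called. They lay in DNA of 39.3% GC on average, and the probe at 1.78 is the one holding the match to CTTTGAA, written TTCAAAG on the strand shown above. Porcn had the highest GC-corrected set mean of the 34 genes, and its RefSeq start could not be placed on the array.

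Of the co-receptors, neither Lrp5 nor Lrp6 was called in any of the 3 settings. Lrp5 had 3 adjacent probes at 1.75 ± 1.43, 1.57 ± 0.38 and 1.22 ± 0.85, with a set mean of 1.51 ± 0.27 and 65.9% mean GC. After correction the same set was at 0.98 ± 0.76. Lrp6 had a single probe at 2.53 ± 0.50 and a set mean of 1.26 ± 1.12. In the corrected values that set was at 0.09, and the highest set, centred on the neighbouring probe, was at 0.49. Both co-receptor values were thus above the median of all genes before the correction (1.15) and the second was below it after (0.86).

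Sfrp1, a secreted Frizzled-related antagonist, was the only antagonist called in all 3 settings. As with Wnt6, the place changed. On the array's coordinates of chromosome 8, the called probe over all spots lay from 22196951 to 22196995, read 3.28 ± 0.36 and had 75.6% GC, and the highest set had a mean of 1.76 ± 1.37. In the corrected values 2 adjacent probes about 1 kb before it, between 22195830 and 22196023, were called at 2.12 ± 0.29 and 2.08 ± 0.26. With the next probe at 1.14 ± 0.36 they gave a set mean of 1.78 ± 0.56 (SD, 3 probes), at 41.0% mean GC. The corrected set was thus as high as the uncorrected one, with a smaller spread.

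The other Sfrp genes gave lower or less even values. Sfrp2 had an even but uncalled set near its start, with probes at 1.75, 1.38 and 1.56 and a mean of 1.56 ± 0.19, and was called after correction through 1 probe at 1308 bp that read 2.15 ± 0.32. The set mean there was 1.03 ± 1.02. Frzb was at 1.47 over all spots in a set of 3 surrogates, and at 0.73 and 0.41 over measured and corrected values. Sfrp5 was at 0.95, 0.92 and 0.95. Sfrp4, which shares 20 of its 33 probes with the neighbouring gene Epdr2, was at 0.74, 0.71 and 0.94.

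Among the Dkk genes, Dkk3 was the only one called in any of the 3 settings, in the corrected values. Its 3 probes read 1.81 ± 0.25, 1.06 ± 0.70 and 1.74 ± 0.27, with a mean of 1.54 ± 0.41, against 0.81 ± 0.84 in its highest set over all spots. The first and second of them are not adjacent on the array. Surrogate spots between them read -0.57 and -1.32 over all spots and were left out, so the set joins probes across low values. Dkk1, the Lrp-binding antagonist with roles in head formation, had highest set means of 0.89, 1.49 and 1.66 in the 3 settings. The last 2 come from 2 probes downstream of the start, of which 1, at 1533 bp, read 2.52 ± 0.37 corrected and the other 0.80 ± 0.63. A surrogate spot between them, left out there, read -0.49 over all spots. No set of Dkk1 was called. Dkk2 had a set just after its start with measured probes at 1.14, 2.03 and 1.53 and a mean of 1.57 ± 0.45, which was not called. Its corrected highest value was 1.18 ± 0.14, upstream. Dkk4 was at 0.63, 0.67 and 0.76, and Dkkl1, a Dkk relative of the testis, at 0.61, 0.65 and 0.80. Dkkl1 shares 12 of its 27 probes with the neighbouring gene Tead2.

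Cer1, best known in the mouse as an antagonist of Nodal, was called in the corrected values, 1674 bp downstream of its start on chromosome 4. The called probe read 2.83 ± 0.46 and its measured neighbours 1.31 ± 1.06 and -0.02 ± 0.88. The highest corrected set, centred on the next probe toward the start, had a mean of 1.79 ± 0.90, against 1.51 ± 0.89 over measured spots. Wif1 was at 1.24 over all spots in a set of 3 surrogates, and at 0.60 and 0.71 over measured and corrected values.

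GC content and surrogates moved with these results across the 34 genes. The highest set over all spots held at least 1 surrogate in 16 genes and consisted of surrogates alone in 5. From measured to corrected values, 8 genes lost more than 0.5 in highest set mean (Wnt4, Wnt2b, Wnt3a, Wnt6, Wnt9a, Lrp5, Lrp6 and Sfrp2), and 13 gained. After correction 18 of the 34 were below 1. The losses came in sets of high GC content, as the correction subtracts more there: the Wnt4 set was at 70.4% GC and the Wnt2b set at 67.4%. The genes called only after correction came from sets of 36.7 to 45.4% GC at the called probes. The scatter behind the calls was also smaller after correction, at 0.58 on array 1 and 0.63 on array 2. Over measured spots it was 0.71 and 0.68, and its part in the added calls was not tested. The correction also removes any real enrichment that follows GC content, so neither setting is taken as the true one.

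**Figure D3:**
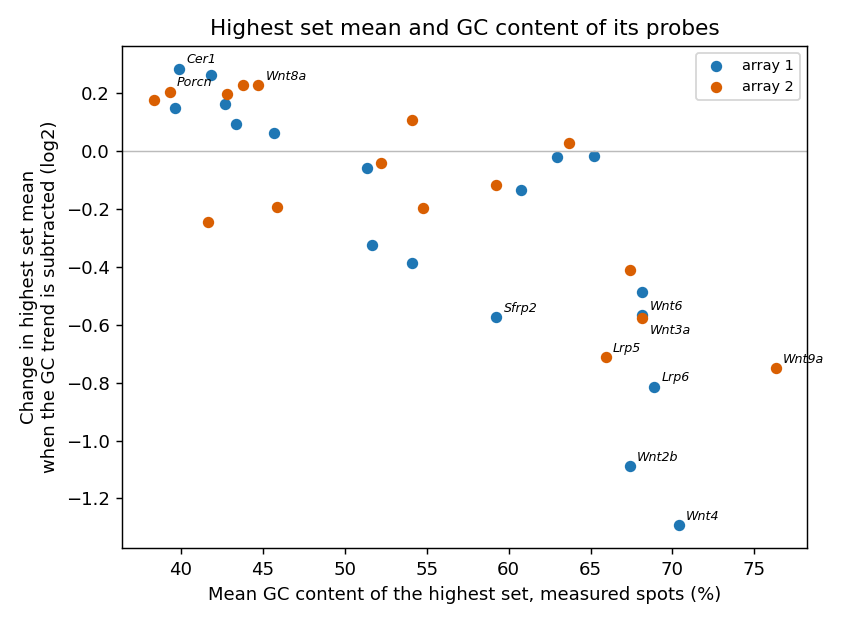
The change in highest set mean when the GC trend was subtracted (log2, vertical axis) is plotted for 34 genes against the mean GC content in percent of the highest measured set (horizontal axis), coloured by array. Most genes with a set near 40% GC gained slightly, though Wnt8b at 41.7% went from 0.44 to 0.19. Every gene with a set above 65% lost, most of all Wnt4 at 70.4% GC and Wnt2b at 67.4%. The highest corrected set can lie elsewhere in the gene: Sfrp1 went from 1.80 at 65.2% GC to 1.78 at 41.0%.

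Starts could be placed for 23 of the 34 genes, all of them ligands or antagonists. Over all spots the highest set of 11 of the 23 (47.8%) was centred within 500 bp of a start, compared with 32.9% of all 8413 genes with a placed start. With measured spots it was 15 of 23 (65.2%) beside 46.9%, and GC-corrected 10 of 23 (43.5%) beside 30.2%. Averaged by distance, the values of these genes were highest from -200 bp to the start, at 0.83 ± 0.87 (SD over 22 genes), and from the start to 200 bp, at 0.81 ± 1.09 (SD over 21 genes). Over all genes the same windows were at 0.43 ± 0.78 and 0.52 ± 0.83. From -1000 to -500 bp the genes described here averaged -0.05 ± 0.51. After GC correction the window before the start was at 0.51 ± 0.70, against 0.28 ± 0.67 over all genes, with medians of 0.52 and 0.22. The window after the start was then at 0.45 ± 0.97, against 0.27 ± 0.68 over all genes. Its median over genes was 0.10, below the 0.19 of all genes, so the higher mean there was not shared evenly by the genes. Whether these means differ was not tested. Mean GC content in the window before the start was 55.6% for these genes in every setting. For all genes it was 49.7% over all spots and 52.1% over measured spots, which the correction uses.

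**Figure D4:**
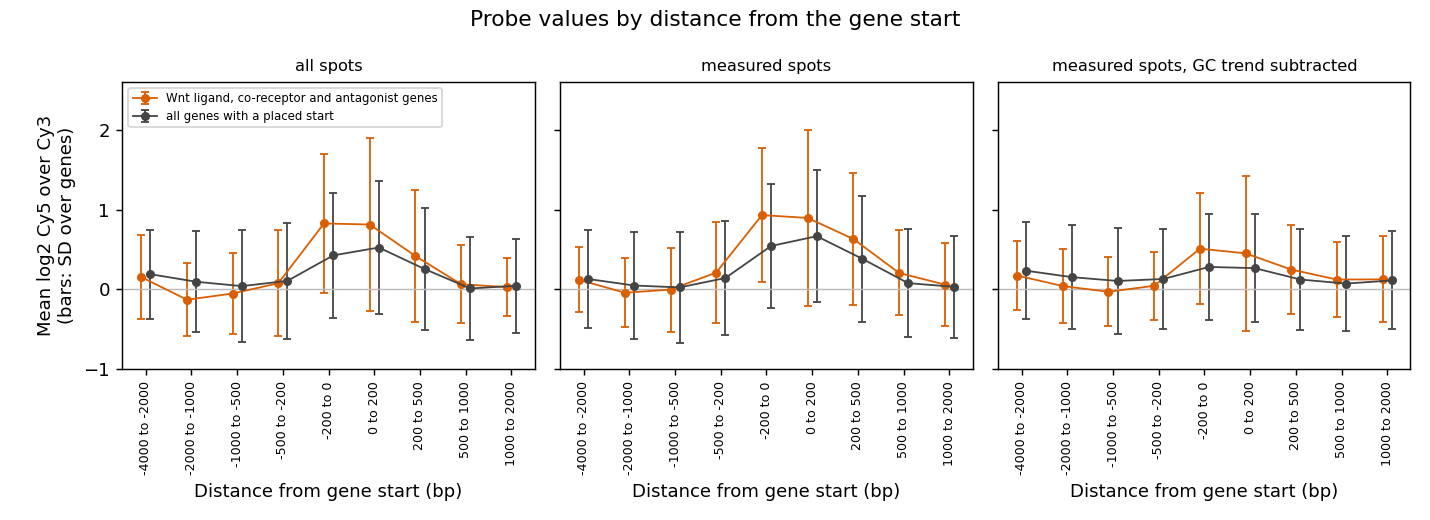
Mean log2 ratios of Cy5 over Cy3 (vertical axis, bars show the SD over genes) are drawn by distance in bp from the gene start for the Wnt ligand, co-receptor and antagonist genes and for all genes with a placed start, in 3 settings. Only genes with a placed start are drawn, and none of the 23 described here is a co-receptor. Both lines peak around the start. Over all spots the peak was 0.83 from -200 bp to the start for the genes described here, and 0.52 from the start to 200 bp for all genes.

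The 3 Tcf motifs were searched on both strands of every probe, and no 2 of these 7-base strings can match the same bases on the same strand. Of the 1211 probes of these genes, 57 (4.71%) held at least 1, against 4.46% of all 474353 probes. CTTTGAT was in 21 (1.73% against 1.11%), CTTTGAA in 19 (1.57% against 1.70%) and CTTTGTT in 18 (1.49% against 1.72%). Of the 24 probes called in any of the 3 settings, 3 held a motif (12.5%). They include the Wnt11 probe at -48 bp and the Porcn probe shown above, and 2 of those 3 matched CTTTGAT (8.33% of the 24). The share among called probes of other genes is not given, so whether called probes hold more motifs was not tested. Among RefSeq promoters of GRCm38.p6, from 250 bases before to 50 after the start, 4 of 26 promoters of these genes held a match (Wnt11, Wnt3, Wnt5b and Dkk1), which is 15.4% against 13.9% of all 32851 promoters. A match is a description of the sequence and not a site.

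The other genes of the pathway were taken from a list of 47 receptors, secreted modulators, destruction complex members and nuclear factors, of which 41 were on the arrays. That list was chosen with earlier results of these data known, and its counts were not split by array or by number of probes. Over all spots 9 of the 41 were called, over measured spots 13, and GC-corrected 14, beside 15.4%, 15.5% and 14.8% of all genes. Their median highest set means were 1.34, 1.25 and 0.97, beside 1.15, 0.99 and 0.86 over all genes with at least 3 probes. Called in all 3 settings were 6: the Frizzled receptors Fzd3 and Fzd5, the secreted agonist Rspo1, the feedback inhibitor Axin2, and the nuclear factors Lef1 and Tcf7l1, the gene of Tcf3 itself. Over all spots, their highest set means were 2.71 for Fzd3, 1.74 for Fzd5, 2.25 for Rspo1, 2.43 for Axin2, 2.10 for Lef1 and 2.46 for Tcf7l1. In the corrected values they were 1.47 for Fzd3, 1.40 for Fzd5, 1.68 for Rspo1, 2.49 for Axin2, 1.94 for Lef1 and 2.65 for Tcf7l1. Axin2 and Tcf7l1 were thus above the highest corrected gene of the ligand, co-receptor and antagonist set, Porcn at 2.13, and kept their level through the correction, whereas Wnt4 and Fzd3 lost more than 1.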

How the data were processed

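Chromatin immunoprecipitated from E14 cells and its input were hybridised to 2 Agilent promoter arrays, with probes of 45 to 60 bases at a median spacing of 182 bp. Per the file headers, the authors extracted spots with Agilent Feature Extraction 9.1.1.1. The deposited red and green processed signals are intensities, already background-subtracted and dye-normalized by that software. The deposited log10 ratio of red over green and its error are the software's too. The labels' protocols name a neighbourhood model with intra-array median normalization; the caller used here follows its thresholds and was written for this work. The genome build of the probe coordinates was not stated in the labels or headers.

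From the intensities, log2 ratios were computed for non-control spots that were not flagged non-uniform and centred on each array's median, without loess. Scatter came from values below the median. GC medians were taken in bins of 2%. Highest set means were taken per gene, and genes needed at least 3 probes to enter the all-gene medians. The caller was tested on simulated data. Analyses used Python 3.11.15, numpy 2.4.6, pandas 2.3.3 and, for normexp (offset 50), limma 3.58.1. In all, 11 alternatives were tried, of which the minimum set mean of 1 removed no called gene.

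Every member gene is named, and genes called in any of 3 settings are given probe by probe. From the pathway list, genes called in all 3 were named. The members and lists were chosen with earlier results of these data known. Sequences other than probes are RefSeq's (GRCm38.p6).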

Additional observations from a re-analysis of the deposited data

How the results depend on the processing

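The count of called genes, 5 of 34 over all spots, became 8 with the GC trend subtracted from all spots (13.0% of all genes called), 10 with it subtracted from measured spots (14.8%), 26 with normexp background correction (54.3%), and 3, Wnt4, Wnt11 and Wnt2b, with the scale taken from set means (10.3%). The cause was not tested. The count stayed between 4 and 7 with measured spots, the deposited log10 ratio, and stricter and looser set probabilities. It also did so with neighbours within 500 bp and with input well above background. A minimum set mean of 1 called as many genes as all spots alone, 2610 of 16953. That minimum removed no called gene, so it could not show whether the count is stable. Counting that minimum as a setting, Wnt4 was called in all 12 settings, Sfrp1 in 11, and Wnt2b, Wnt6 and Wnt11 in 10. Dkk4, Dkkl1, Frzb, Wnt2, Wnt5b, Wnt8b, Wnt9b and Wnt10a were called in none. Leaving out an array was not run, because each gene lies on 1 array. No paired analysis was possible because there is 1 group. Surrogate Cy5 values made up 51.7% of spots on array 2 and 30.7% on array 1, which limits what low ratios show.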
